A study of Mus musculus with 8 samples.

Results

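The insulin-like growth factor (IGF) system was followed at the level of mRNA in cultured bone marrow mesenchymal stem cells (MSCs) of mice. It was taken as 10 genes by name, out of 47643 entries with a gene name: the ligands Igf1 and Igf2, the receptors Igf1r and Igf2r, and the binding proteins Igfbp2, Igfbp3, Igfbp4, Igfbp5, Igfbp6 and Igfbp7. The RNA-seq data held 2 libraries labelled wild type (WT) and 2 from Prx1-Cre;Mettl3fl/fl mice (cKO), on a C57BL/6 background. Mettl3 encodes the enzyme that writes N6-methyladenosine (m6A) onto mRNA, and in the cKO mice Cre removes its exon 2 and exon 3. In the study the controls are littermates with the same floxed allele, and Prx1-Cre acts from early limb bud mesenchyme on. The m6A data, from antibody enrichment of methylated RNA fragments, held 2 immunoprecipitates and 2 inputs of wild type MSCs with 1 peak list for all 4. All 8 samples had spent 2 days in osteogenic medium, which holds dexamethasone at 100 nM, ascorbic acid at 50 μg/ml and β-glycerophosphate at 5 mM. No label says that libraries came from separate animals or cultures, so p-values measure only the spread between these samples, which may be technical.

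IGF1 and IGF2 are small secreted peptides that act on the tyrosine kinase receptor IGF1R, which signals through insulin receptor substrates, PI3K, Akt and mTOR. IGF2R takes up IGF2 for degradation and has no kinase of its own. Most IGF outside the cell is held by binding proteins, which lengthen its life or keep it from the receptor, and proteases release it. Bone cells both make and respond to IGF1, whose production in the body depends on growth hormone, and bone matrix stores IGFs together with binding proteins.

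The IGF genes split evenly between loss and gain. Igf1, its receptor Igf1r and Igfbp3 were about 3 times lower in cKO than in WT libraries, whereas Igf2, Igfbp6 and above all Igfbp2 were higher. Igf2r, Igfbp4, Igfbp5 and Igfbp7 did not pass the test. With p-values from edgeR's quasi-likelihood test, adjusted by Benjamini-Hochberg over all 15327 genes that were tested, 3 of the 10 members were higher and 3 lower, where 30.5% of all genes tested passed (13.7% higher and 16.8% lower). All 10 members passed the filter on low counts. Without WT replicate 2 the higher count was 5, and without WT replicate 1 the lower count was 5, by members among Igf2r, Igfbp4, Igfbp5 and Igfbp7. With 1 WT library left, the spread behind these counts came from the cKO pair alone. The 6 members that passed with all libraries also changed at least 2-fold, as did 9.2% of all genes tested. The median log2 fold change was 0.03 over the members and −0.00 over all genes tested.

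**Figure D1:**
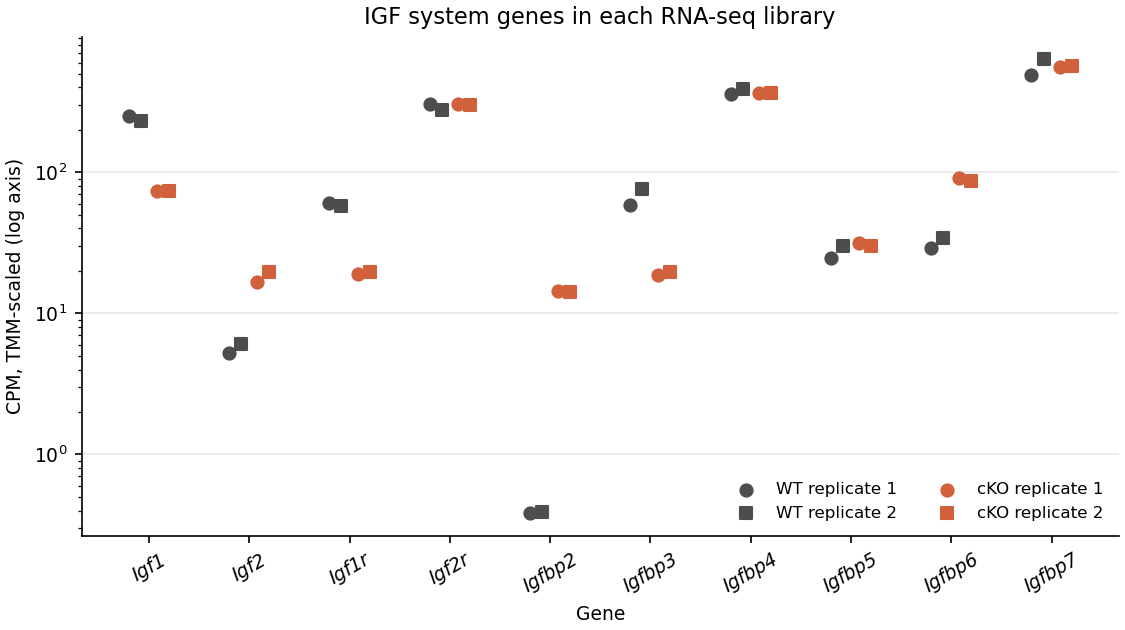
CPM (counts per 1000000, scaled by TMM, log axis) of the 10 IGF system genes in each RNA-seq library, with WT replicates in grey and cKO replicates in orange. The 2 WT and 2 cKO points stand apart for Igf1, Igf2, Igf1r, Igfbp2, Igfbp3 and Igfbp6, and Igfbp2 moves from under 1 CPM to 14.4 and 14.2 CPM.

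**Figure D2:**
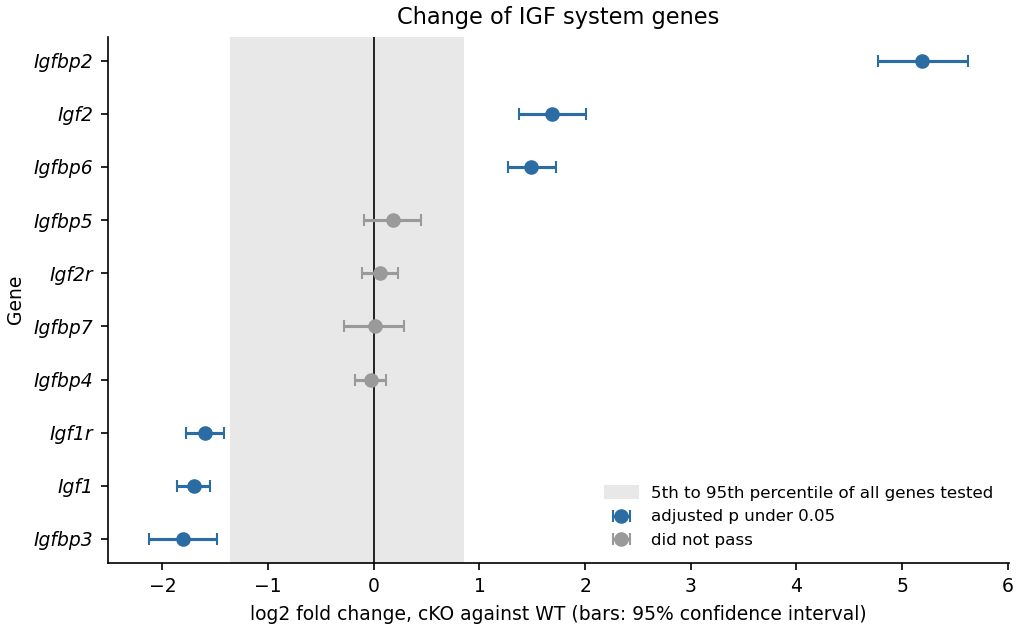
Log2 fold change of each IGF system gene in cKO against WT libraries (n = 2 each), with 95% confidence intervals; blue points passed the adjusted threshold and grey points did not. The grey band spans the 5th to the 95th percentile of all genes tested, −1.35 to 0.84, and the 6 blue points lie outside it.

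Library depth ranged from 23978099 to 34106693 counts. The targeted gene did not show its deletion at this level. Mettl3 had 596 and 478 counts in WT and 424 and 520 in cKO libraries (log2 fold change −0.03, adjusted p = 0.824 by the same test), and a sum over the whole gene does not single out the floxed exons. The cKO replicates were close, with a chi-square over genes of 1.82 times its expectation against 32.6 for the WT replicates, so they differed by little more than counting noise. Stromal markers differed widely in level. Col1a1 was the highest, at 1908.4 CPM in WT and 1241.6 CPM in cKO (means, n = 2). Lepr was the lowest, at 1.17 CPM in WT and 0.711 CPM in cKO. Macrophage genes were abundant in these cultures labelled as MSCs. The 9 macrophage markers summed to 16819.4 and 21291.7 CPM in WT and to 22407.6 and 22520.7 CPM in cKO libraries, most of it from Lyz2, the lysozyme of myeloid cells. Of these 9, Ptprc and C1qa were higher in cKO and none was lower, beside 13.7% and 16.8% of all genes tested. The 10 stromal markers summed to 4531.9 and 4343.2 CPM in WT and to 2927.3 and 2981.9 CPM in cKO libraries, most of it from Col1a1 and Col1a2. Of the stromal markers, 4 were higher and 5 lower, beside the same shares of all genes tested. Among the stromal markers, Thy1 went from 3.93 and 1.91 to 74.7 and 69.4 CPM and Nt5e from 12.3 and 12.3 to 2.85 and 2.04 CPM. Endothelial markers summed to 3.25 to 3.64 CPM in WT and 14.6 to 17.2 CPM in cKO, with Pecam1 and Tie1 near 0. Neutrophil markers stayed under 5 CPM and erythroid markers under 1 CPM in sum. In such mixed RNA, fewer cells of a type and less RNA per cell cannot be told apart, and the part of this makeup in the IGF results was not tested.

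Of the members, 5 carried m6A peaks in WT MSCs, with 10 peaks in all: 1 on Igf1, 2 on Igf1r, 1 on Igf2r, 1 on Igfbp3 and 5 on Igfbp5. The 3 members that fell in cKO cells each had a peak, and the 3 that rose had none. Over the 14118 genes tested that could be placed on the mm9 annotation, the order was the other way: 63.2% of the higher genes, 30.2% of the lower genes and 37.8% of the rest held a peak, and 40.1% overall. A peak list from 1 genotype cannot show a change in methylation, and the members were not tested against these shares. Igf2 and Igfbp2 were low in WT cells (means of 2.48 and 0.475 TPM, transcripts per 1000000, a scale that corrects for length). Igfbp7, Igfbp4 and Igfbp6 had no peak either, at WT means of 846, 160 and 48 TPM. With a −log10 q of at least 10, only Igf1, Igf1r and Igfbp5 kept peaks, 6 in all.

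The sites under these peaks are shown as 30 bases of the mm9 transcript strand around the GGAC nearest to the summit, since GGAC is the core of the motif that METTL3 methylates. They cover every peak of the 3 genes that fell, with the Igf2r peak and the highest Igfbp5 peak beside them. GGAC is in capitals. Its A lay 23 bp from the summit for Igf1, 101 for Igf1r exon 2 and 24 for the Igf1r last exon. For Igf2r, Igfbp3 and Igfbp5 the distance was 36, 68 and 56 bp.
Igf1 (chr10:87378199-87378228, plus strand): agcaggcaaagagGGACatgcgggaacagg
Igf1r exon 2 (chr7:75149125-75149154, plus strand): cgaaggaatgtggGGACctgtgtccaggga
Igf1r last exon (chr7:75371134-75371163, plus strand): tgaaagacactcaGGACacaaggctgagaa
Igf2r (chr17:12876637-12876666, minus strand): gaagttcagacccGGACagcgcaagccaac
Igfbp3 (chr11:7106845-7106874, minus strand): tgggagcccataaGGACaaggataaggacc
Igfbp5 (chr1:72906749-72906778, minus strand): gcgtcgactcataGGACatgggtggctgcg
All 10 member peaks held at least 1 GGAC on the transcript strand, and so did 86.7% of the 9397 peaks within genes. The Igfbp3 site has a second GGAC near its 3′ end, printed in lower case. A match is a description of the sequence and not of a methylated base.

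The strongest peak of the system lay on Igf1r at chr7:75370958-75371293. Its summit was in the last exon, 159 nt before the end of the coding sequence, and the peak covered the stop codon. It had a fold enrichment of 8.26 over background, above 94.6% of all 10160 peaks, and its −log10 q of 63.9 ranked 24. The other Igf1r peak, at chr7:75148880-75149180, lay in the coding part of exon 2 of 21 with a fold enrichment of 6.83. A further peak with a fold enrichment of 4.78 lay 5124 bp beyond the annotated end of Igf1r and was in no gene of the GENCODE vM1 annotation. Igf1r spans 7070 bp more in the deposited expression table than in that annotation. There its transcript with the longest coding sequence has 42 nt from the stop codon to its end at 75371326, and the gene ends at 75371484. Whether the further peak belongs to Igf1r was not tested.

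The Igf1 peak, chr10:87377882-87378321, had a fold enrichment of 3.94, close to the median of 4.03 over all peaks. Its summit lay in an exon of only 1 of 9 annotated Igf1 transcripts, an alternative last exon whose stop codon the peak covers, and in no exon of the others. Gene-level counts do not tell these transcripts apart. The Igfbp3 peak, chr11:7106781-7107028, lay 600 nt into the 3′UTR with a fold enrichment of 4.53 and a pileup of 26 fragments, where the median peak had 60. The Igf2r peak, chr17:12876526-12877090, lay 108 nt before the end of the coding sequence in the last of 48 exons. It had a pileup of 139 fragments but a fold enrichment of 1.73, lower than all but 0.817% of peaks.

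Igfbp5 held 5 separate peaks in a single 3′UTR of 4448 nt, at 243, 1723, 2135, 2837 and 3207 nt after the last coding base. Their fold enrichments ran from 1.91 to 3.77, all under the median peak, and their pileups from 67 to 146 fragments, all over it. Of the 5872 genes with a peak, only 3 had at least 5 summits in the 3′UTR, and Igfbp5 was one of them beside Preb and Rassf4. Its peaks at 1723 and 3207 nt had a −log10 q of 3.6 and 8.8. With a −log10 q of at least 10, Igfbp5 would not reach 5.

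**Figure D3:**
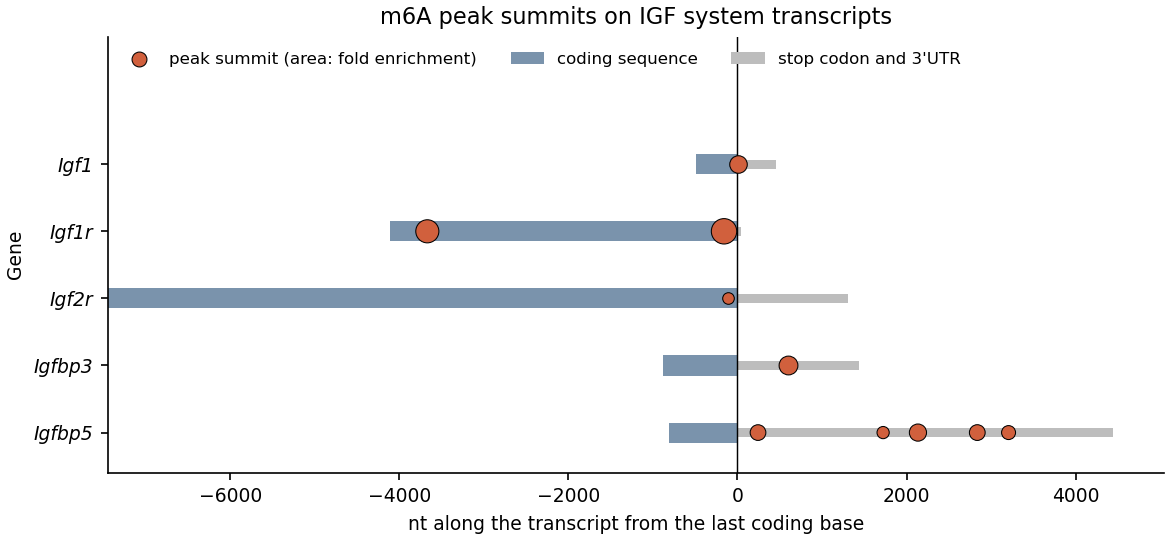
Position of the 10 m6A peak summits (orange, area in proportion to fold enrichment) along 1 annotated transcript of each of 5 IGF system genes, in nt from the last coding base; coding sequence is blue and the stop codon with the 3′UTR grey. Igf1, Igf1r and Igf2r have a summit within 159 nt of the end of the coding sequence, and Igfbp5 has 5 along its 3′UTR.

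Igf1, the main IGF of postnatal growth, was the more abundant ligand in both genotypes and fell in cKO cells. Igf1 (ENSMUSG00000020053, GRCm38 chr10:87858265-87937042, plus strand) had 8419 and 6574 counts in WT and 1794 and 2357 in cKO libraries, or 249 and 233 against 74 and 74 CPM. The cKO libraries lay well below both WT libraries. It was 3.25-fold lower (log2 fold change −1.70, SE 0.0643, 95% interval −1.86 to −1.55, n = 2 per genotype), with an adjusted p of 2.03e-05 in edgeR's quasi-likelihood test. Macrophages and stromal cells are both known sources of Igf1. The summed level of the macrophage markers was 16819.4 and 21291.7 CPM in WT and 22407.6 and 22520.7 CPM in cKO. That of the stromal markers was 4531.9 and 4343.2 against 2927.3 and 2981.9 CPM, most of it from Col1a1 and Col1a2, which were both lower. Of the 10 stromal markers, 4 were higher (Pdgfra, Pdgfrb, Thy1 and Prrx1) and 5 lower, beside 13.7% and 16.8% of all genes tested. The part of either cell type in the fall of Igf1 was not tested.

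Igf2, the fetal IGF and an imprinted gene, went the other way from a low level. Igf2 (ENSMUSG00000048583, GRCm38 chr7:142650766-142666816, minus strand) had 177 and 171 counts in WT and 408 and 620 in cKO libraries, or 5.24 and 6.05 against 16.8 and 19.5 CPM. Each cKO library was well above both WT libraries. It was 3.23-fold higher (log2 fold change 1.69, SE 0.132, 95% interval 1.37 to 2.01), with an adjusted p of 0.000338 in edgeR's quasi-likelihood test. The antisense entry Igf2os, on the opposite strand, had at most 2 counts in a library and Mir483 none.

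In TPM the ratio of Igf1 to Igf2 was 67.7 and 57.2 in the WT libraries and 3.68 and 4.28 in the cKO libraries. Igf2 thus supplied 1.46% and 1.72% of the ligand mRNA in WT and 21.3% and 18.9% in cKO libraries. The ranges did not overlap, and with 2 libraries against 2 an exact permutation test cannot go below p = 0.333. The TPM and the counts did not give the same size of change. On log2(TPM + 0.1) it was −1.987 for Igf1 and 1.936 for Igf2, against −1.70 and 1.69 from the counts. On log2(TPM + 1), which compresses low values, it was −1.962 and 1.624.

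H19, the imprinted noncoding RNA next to Igf2 on chromosome 7, moved opposite to Igf2. It was named after its values were seen. H19 had 1744 and 1880 counts in WT and 112 and 152 in cKO libraries, or 51.6 and 66.5 against 4.62 and 4.77 CPM. It was 12.5-fold lower (log2 fold change −3.65, SE 0.153, 95% interval −4.02 to −3.28), with an adjusted p of 2.81e-05 in edgeR's quasi-likelihood test. In the m6A list H19 held 2 peaks. The data do not separate the parental alleles.

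Igf1r, the signalling receptor for both ligands, fell with Igf1. Igf1r (ENSMUSG00000005533, GRCm38 chr7:67952827-68233668, plus strand) had 2046 and 1621 counts in WT and 463 and 631 in cKO libraries, or 60.5 and 57.3 against 19.1 and 19.8 CPM. The 2 cKO libraries were close together and far below the WT pair. It was 3.03-fold lower (log2 fold change −1.60, SE 0.0749, 95% interval −1.78 to −1.42), with an adjusted p of 4.53e-05 in edgeR's quasi-likelihood test. By length-corrected level it went from rank 7 of the 10 members in WT to the last place in cKO cells, at 2.5 and 3.75 TPM.

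Igf2r, the scavenger receptor of IGF2 and carrier of lysosomal enzymes, did not pass the test. Igf2r (ENSMUSG00000023830, GRCm38 chr17:12682406-12769664, minus strand) had 306 and 275 CPM in WT and 304 and 301 CPM in cKO libraries, so the genotypes overlapped. Its log2 fold change was 0.06 (95% interval −0.11 to 0.23, adjusted p = 0.577 by edgeR). This small change depended on the WT libraries: without WT replicate 1 it was 0.143, and without WT replicate 2 it was −0.019. Airn, the antisense RNA of the imprinted Igf2r locus, had 69 to 101 counts against 7371 to 10345 for Igf2r, and counting by strand is not stated.

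Igfbp2, a binding protein made by stromal and fat-lineage cells, changed more than any other member. Igfbp2 (ENSMUSG00000039323, GRCm38 chr1:72824503-72852474, plus strand) had 13 and 11 counts in the WT libraries and 349 and 453 in the cKO libraries. In CPM these were 0.385 and 0.389 against 14.4 and 14.2. It was near silent in WT and clearly present in cKO libraries. It was 36.6-fold higher (95% interval 27.3 to 49), or 5.19 on the log2 scale (SE 0.175), with an adjusted p of 1.37e-05 in edgeR's quasi-likelihood test. Of all genes tested, 0.509% had a larger change in either direction. On the log2(TPM + 1) scale, which compresses low values, the difference was 3.77.

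The genes outside the system whose 4 libraries followed the pattern of Igfbp2 most closely, by Euclidean distance of log2 CPM centred per gene, were Tgtp1, Slco1c1 and Cldn1, among 15190 genes with a count in every library. Tgtp1, an interferon-induced GTPase, was at a distance of 0.356 and went from 0.296 and 0.212 CPM in WT to 9.12 and 9.54 CPM in cKO. Slco1c1, a transporter of thyroid hormone, was at 0.523 and went from 0.0296 and 0.0354 to 1.82 and 1.26 CPM. Its WT values are those of 1 count per library, so its distance rests on single counts. Cldn1, a tight junction protein, was at 0.568 and went from 1.27 and 0.743 to 33.5 and 34.6 CPM. With an offset of 0.5 CPM, an alternative added after the values were seen, only Tgtp1 stayed among the 3 nearest, beside Lama2 (0.422) and Ace (0.457). The likeness is over 4 libraries of 2 genotypes and says nothing of shared function.

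Igfbp6, which binds IGF2 in preference to IGF1, rose as well. Igfbp6 (ENSMUSG00000023046, GRCm38 chr15:102144362-102149511, plus strand) had 979 and 967 counts in WT and 2199 and 2769 in cKO libraries, or 29 and 34.2 against 90.8 and 86.9 CPM. No cKO library came near the WT range. The rise was 2.81-fold (log2 fold change 1.49, SE 0.0925, 95% interval 1.27 to 1.72), with an adjusted p of 0.000134 in edgeR's quasi-likelihood test.

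Igfbp3, the main IGF carrier of blood, fell. Igfbp3 (ENSMUSG00000020427, GRCm38 chr11:7206086-7213923, minus strand) had 1975 and 2153 counts in WT and 453 and 629 in cKO libraries, or 58.4 and 76.2 against 18.7 and 19.7 CPM. The WT libraries differed from each other more than the cKO libraries did, yet both stayed far above them. The fall was 3.49-fold (log2 fold change −1.81, SE 0.135, 95% interval −2.13 to −1.48), with an adjusted p of 0.00029 in edgeR's quasi-likelihood test.

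The most abundant binding proteins did not pass the test, and the sign of their small changes depended on the WT library kept. Igfbp4 (ENSMUSG00000017493, GRCm38 chr11:99041244-99054392, plus strand), which restrains IGF action until the protease PAPP-A cleaves it, had 360 and 388 CPM in WT and 368 and 366 CPM in cKO libraries. Its log2 fold change was −0.03 (95% interval −0.18 to 0.12, adjusted p = 0.774, edgeR), and the genotypes overlapped. Without WT replicate 1 it was −0.074 and without WT replicate 2 it was 0.024. Igfbp7 (ENSMUSG00000036256, GRCm38 chr5:77349240-77408041, minus strand), a matrix protein that binds IGFs weakly, had 489 and 632 CPM in WT and 555 and 571 CPM in cKO libraries. Both cKO values lay between the WT values, with a log2 fold change of 0.01 (95% interval −0.28 to 0.29, adjusted p = 0.973, edgeR). Without WT replicate 1 it was −0.160 and without WT replicate 2 it was 0.202, so its direction depended on which WT library was kept. Polr2b, on the opposite strand, overlaps Igfbp7 and had 1770 to 2515 counts against 13449 to 18198.

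Igfbp5 (ENSMUSG00000026185, GRCm38 chr1:72857932-72874884, minus strand), the neighbour of Igfbp2 and a binding protein of bone matrix, had 24.6 and 30.1 CPM in WT and 31.7 and 30.1 CPM in cKO libraries. The second WT library was level with the cKO libraries. Its log2 fold change was 0.18 (95% interval −0.09 to 0.45, adjusted p = 0.281, edgeR), and without WT replicate 2 it was 0.322. The interval does not reach the size of the change of Igfbp2, which lies beside it on chromosome 1.

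The mix of binding proteins was compared by their length-corrected levels. The summed level of Igfbp2 to Igfbp6 was 242 and 268 TPM in WT and 360 and 351 TPM in cKO libraries. Igfbp4 made up most of it in WT, 64.2% and 61.4%, and 48% and 48.5% in cKO. Its own level did not fall, at 156 and 164 TPM in WT and 173 and 170 TPM in cKO, while the sum grew. Igfbp6 went from 18.6% and 19% to 41.2% and 40.4%. Igfbp3 went from 14.7% and 16.9% to 3.35% and 3.66%. Igfbp2 went from 0.198% and 0.176% to 5.31% and 5.43%, and Igfbp5 held between 2.05% and 2.5% in every library. The 5 shares are parts of 1 total and do not move independently, and their separation between genotypes was not tested. Those of Igfbp5 lay within 0.5 percentage points of each other, and its CPM overlapped between the genotypes.

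**Figure D4:**
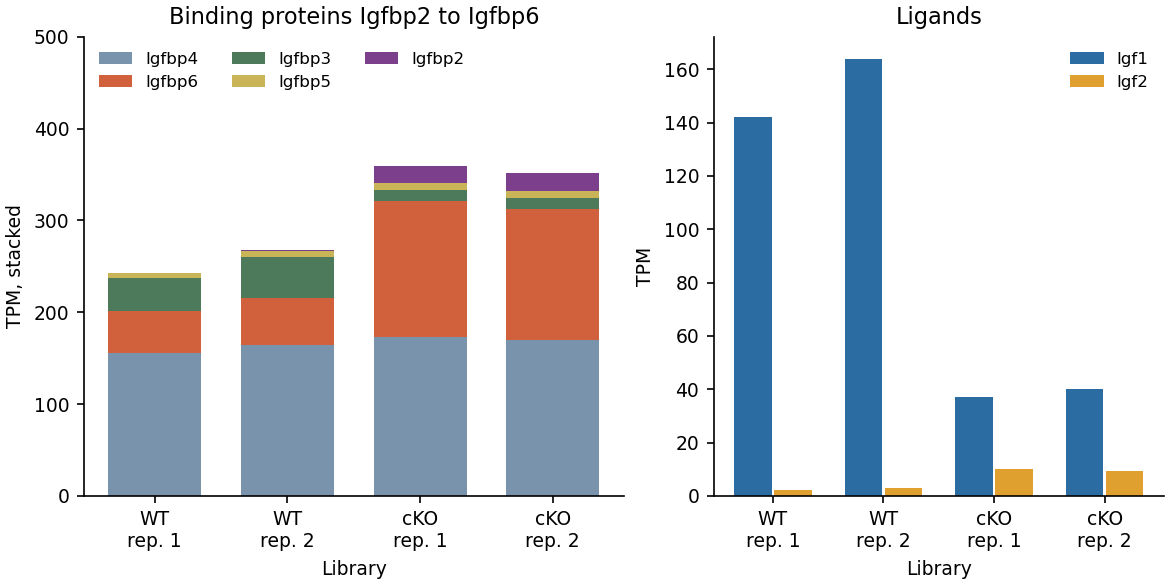
Length-corrected levels (TPM) in each RNA-seq library, stacked for the binding proteins Igfbp2 to Igfbp6 on the left and side by side for the ligands on the right. The Igfbp6 and Igfbp2 segments grow and the Igfbp3 segment shrinks from the WT to the cKO libraries, while Igf1 goes from 142 and 164 TPM to 37 and 39.9 TPM and Igf2 from 2.1 and 2.86 to 10 and 9.31 TPM.

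By TPM the order of levels in WT cells was Igfbp7 (mean 846), Igfbp4 (160), Igf1 (153), Igfbp6 (48), Igf2r (43.5), Igfbp3 (40.5), Igf1r (8.18), Igfbp5 (6.12), Igf2 (2.48) and Igfbp2 (0.475). Igfbp4 and Igf1 overlapped between libraries, as did Igfbp6 with Igf2r and Igf2r with Igfbp3. In cKO cells the order was Igfbp7 (914), Igfbp4 (172), Igfbp6 (145), Igf2r (48.3), Igf1 (38.5), Igfbp2 (19.1), Igfbp3 (12.4), Igf2 (9.66), Igfbp5 (7.4) and Igf1r (3.12), and no neighbours overlapped. Igfbp2 rose from last to sixth place, and Igf1 went from the third to the fifth.

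The genes around the system were described by 6 lists. Of all genes tested, 13.7% were higher and 16.8% lower. The extracellular regulators, a mixed list of proteases, their inhibitors, Igfals (a subunit of the circulating IGF complex) and further binding proteins and relatives of them, had 9 of 11 genes tested, of which 6 were lower and 1 higher in cKO cells, with a median log2 fold change of −1.17 against −0.00 over all genes tested. Stc2 and Stc1 encode stanniocalcins, which block PAPP-A. Stc2 had 90 and 90 counts in WT and 16 and 25 in cKO libraries (3.99-fold lower, adjusted p = 0.00307 by edgeR), and Stc1 had 277 and 303 against 97 and 115 (2.48-fold lower, adjusted p = 0.00318 by edgeR). Their target Pappa, the protease of Igfbp4, was the gene that rose and was named after its values were seen. Pappa had 2933 and 2042 counts in WT and 3625 and 4646 in cKO libraries, a log2 fold change of 0.89 (SE 0.0934, adjusted p = 0.00111 by edgeR). Htra3, a secreted serine protease, had 34.8 and 34.1 CPM in WT and 13.7 and 15.8 CPM in cKO libraries (log2 fold change −1.22, adjusted p = 0.000361 by edgeR), while its relative Htra1, the most abundant of the list, had 102 and 117 CPM in WT and 107 and 114 CPM in cKO. Igfbp1, the liver binding protein, was listed at 0 in every library.

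Of the growth hormone axis, 5 of 8 genes were lower and 1 higher, beside 16.8% and 13.7% of all genes tested. The list had a median of −0.49. Ghr, the growth hormone receptor, had 223 and 218 CPM in WT and 147 and 146 CPM in cKO libraries (log2 fold change −0.59, SE 0.0566, adjusted p = 0.000808 by edgeR). The feedback inhibitors of cytokine receptors fell more: Socs3 had a log2 fold change of −1.60, Socs1 of −1.32 and Socs2 of −1.20, with adjusted p-values of 0.000226, 0.0124 and 0.000317 in edgeR. Socs2, the one best known for restraining growth hormone signalling, had 1038 and 834 counts in WT and 334 and 399 in cKO libraries. Cish, another of these inhibitors and named after its values were seen, was the gene that rose, by 0.65 on the log2 scale (adjusted p = 0.043 by edgeR). No gene of this list passed as higher in DESeq2, in either limma fit or with the cKO libraries summed.

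Of 14 receptor, substrate and adaptor genes tested, 4 were higher and 3 lower, beside 13.7% and 16.8% of all genes tested. The list had a median of 0.14. Irs2, a docking protein of the insulin and IGF1 receptors, was higher (log2 fold change 0.75, adjusted p = 0.000952 by edgeR). Grb14 and Grb10, adaptors that inhibit these receptors, were lower (−0.96 and −0.59, adjusted p = 0.00483 and 0.0012 by edgeR). The phosphatase gene Ptpn1 and the adaptor gene Grb2, the most abundant of the list, did not pass, at −0.06 and 0.14. Of 24 PI3K-Akt-mTOR genes, 9 were higher and 1 lower, beside the same shares of all genes tested, with a median of 0.21. The transcription factors Foxo1 and Foxo3, which Akt keeps out of the nucleus, moved apart, with log2 fold changes of −0.57 and 0.52 (edgeR, adjusted p = 0.00451 and 0.00359). Pik3r1, the regulatory subunit of PI3K, rose by 0.44 (adjusted p = 0.011 by edgeR), while the most abundant genes of the list did not pass. Akt1 had 339 and 359 CPM in WT and 355 and 376 CPM in cKO, and Rheb, the activator of mTOR, had 118 and 119 against 111 and 110 CPM.

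Of 11 tested genes that FoxO factors are known to activate, 7 were higher and 1 lower, beside 13.7% and 16.8% of all genes tested. The list had a median of 0.44. Pik3ip1, an inhibitor of PI3K, had 25.9 and 22.1 CPM in WT and 54.4 and 53.5 CPM in cKO libraries (log2 fold change 1.16, adjusted p = 0.000378 by edgeR). Klf15, a transcription factor of fasting and glucocorticoid responses, went from 9.02 and 11 to 20.1 and 21 CPM (1.04, adjusted p = 0.00164 by edgeR). Txnip, which restrains glucose uptake, went from 301 and 274 to 408 and 415 CPM (0.52, adjusted p = 0.00252 by edgeR). Gabarapl1, an autophagy gene and with Txnip the most abundant of the list, had 164 and 137 CPM in WT and 166 and 170 CPM in cKO and did not pass. The 3 IGF2 mRNA binding proteins, readers of m6A, did not pass the test, with unadjusted p-values from 0.291 to 0.915 in edgeR, and none passed in DESeq2 either. Igf2bp2, the most abundant, had 21.5 and 21.6 CPM in WT and 21.1 and 20.9 CPM in cKO libraries, and Igf2bp3 had 4.64 and 3.29 against 4.42 and 3.45 CPM.

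**Figure D5:**
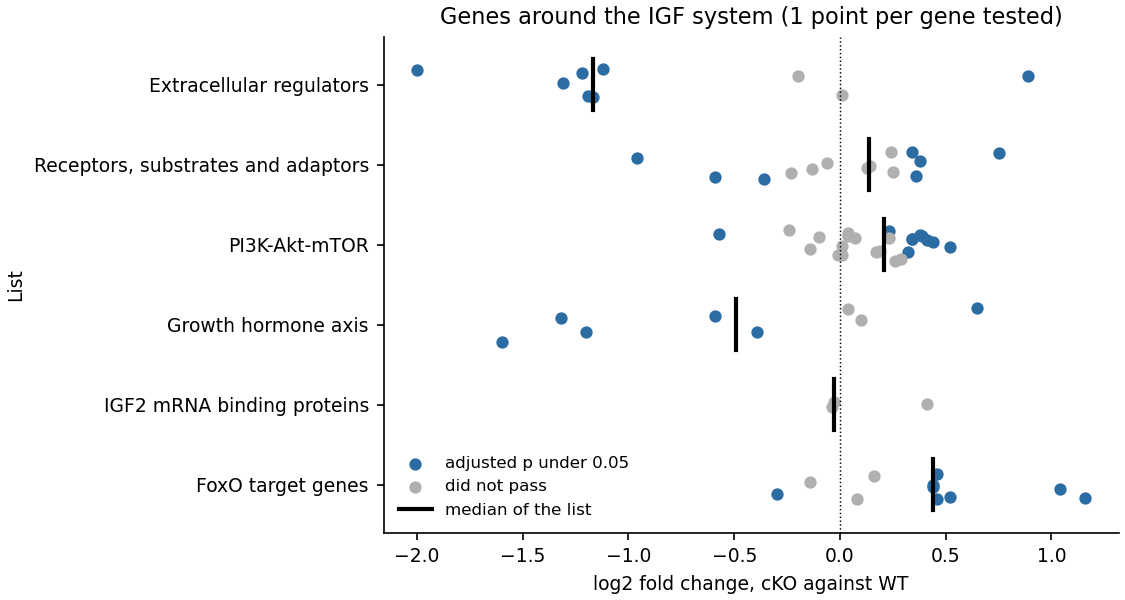
Log2 fold change in cKO against WT libraries of each gene tested in 6 lists around the IGF system, blue where the adjusted threshold was passed and grey where it was not; black bars mark each list's median. The extracellular regulators and the growth hormone axis lie mostly below 0, with medians of −1.17 and −0.49, and the FoxO target genes mostly above it, with a median of 0.44.

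The 6 lists together held 69 genes tested, of which 22 were higher and 16 lower, beside the 13.7% and 16.8% of all genes tested. These counts depended on the libraries, and with 1 library left in a genotype the spread came from the other genotype alone. Without WT replicate 1 or WT replicate 2 the higher count was 34 in both cases, and without cKO replicate 1 or cKO replicate 2 it was 7 and 6. The PI3K-Akt-mTOR list moved most, with 15 higher genes without either WT replicate and 1 without either cKO replicate. The receptor, substrate and adaptor list had 8 higher genes without either WT replicate, 6 lower ones without WT replicate 2, and 1 higher gene without either cKO replicate. Of the FoxO target genes, 4 were higher without cKO replicate 1 and 3 without cKO replicate 2, and of the growth hormone axis 3 were lower without cKO replicate 1 and none was higher without either cKO replicate. The extracellular regulators had 5 or 6 genes lower whichever library was left out, and 2 higher without WT replicate 2. No IGF2 mRNA binding protein passed with any library left out.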

How the data were processed

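RNA-seq compared 2 WT with 2 cKO libraries, and MeRIP-Seq supplied 1 peak list from 2 immunoprecipitates and 2 inputs of wild type cells. The authors mapped RNA-seq reads with HISAT2 (version 2.0.4 per the submitters' processing notes) and deposited estimated counts per gene, without normalization, with GRCm38 positions. How reads were counted, and whether by strand, is not given in the sources used here. The authors also deposited a value headed FPKM that sums to 1000000 in each library, so it is TPM. The deposited peak list, in the layout of MACS2 output on mm9, gives the pileup signal at the summit, the fold enrichment as a ratio, and the p-value and q-value, each as −log10. Its depth is unknown. Gene lengths and positions in the deposited files are not scaled values.

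Estimated counts were rounded. Entries without a gene name (0.11% to 0.125% of counts) were left out. The test was edgeR 4.0.16 (glmQLFit, glmQLFTest, two-sided, no block) after filterByExpr and TMM scaling, with p-values adjusted by Benjamini-Hochberg over 15327 genes. The study used Ballgown, which was not run. Each SE was derived from the F statistic of the change. CPM used TMM-scaled library sizes. The script was tested on simulated data. Summits were placed on GENCODE vM1, and GGAC was searched on the transcript strand only.

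The members and lists were chosen with earlier results of these data known. All members were named, with Mettl3, genes overlapping a member, the 3 genes nearest in pattern to the member that changed most, and in each of the 6 lists around the system up to 3 largest changes among genes that passed with 10 or more counts in both libraries of a genotype, and the 2 highest mean TPM. The alternatives were DESeq2 1.42.0, median-of-ratios scaling, a replicate block, every gene with a count kept, limma 3.58.1 on log2(TPM + 0.1) and log2(TPM + 1), the cKO libraries summed, each library left out, an unadjusted p under 0.05 with at least 2-fold, and for peaks any overlap, a −log10 q of at least 10, merged peaks and exons only.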

Additional observations from a re-analysis of the deposited data

How the results depend on the processing

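Igf1, Igf2, Igf1r, Igfbp2, Igfbp3 and Igfbp6 kept their direction and passed in all 11 alternatives, with adjusted p-values of at most 0.0209 (Igf1r). Leaving out single libraries gave 3 to 5 members higher and 3 to 5 lower, a median over the members of −0.017 to 0.113, 724 to 4255 genes higher and 1143 to 4495 lower over all genes, and 6 to 34 higher and 10 to 21 lower in the 6 lists. With 1 library left in a genotype, it is assumed to vary like the others, and without a WT replicate the spread came from the close cKO pair alone. With the cKO libraries summed, 793 genes were higher and 1219 lower, and 7 genes of the lists higher. An unadjusted p under 0.05 with at least 2-fold gave 508 higher and 1103 lower genes, and in the lists 2 and 9. limma gave 1232 (log2(TPM + 0.1)) and 1229 (log2(TPM + 1)) genes lower and medians over the members of 0.136 and 0.135. Signs turned for Igf2r (0.143 without WT replicate 1, −0.019 without WT replicate 2), Igfbp4 (−0.074 without WT replicate 1, 0.024 without WT replicate 2 and 0.101 in both limma fits) and Igfbp7 (−0.160 without WT replicate 1, 0.202 without WT replicate 2, −0.010 without cKO replicate 2). The cause was not tested. A −log10 q of at least 10 left 3 members with 6 peaks.

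The replicate block changed no call of a member (3 higher, 3 lower) and gave 2253 genes higher and 2628 lower. The labels share only a number: the deviations of replicate 1 of both genotypes had a correlation of 0.032 across genes.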
